A study of Mus musculus with 30 samples.

Results

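RNA-seq libraries of mouse muscle satellite cells taken 8 h after muscle injury were set against the 4 libraries from 0.5 to 4 h in which Myod1 was already high. The question was what the 8 h libraries hold beyond that state. Myod1 is the transcription factor that marks the step of a satellite cell into activation. The members are 6 of the 18 libraries of an activation time course, within 30 libraries in the whole series: the 2 libraries at 8 h, library 2 at 0.5 h, library 2 at 1 h, library 1 at 2 h and library 2 at 4 h. Each early time has 2 libraries, and the one with more Myod1 by CPM, a gene's count relative to the scaled total of its library, was taken, so that a measured value chose the early members.

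All groups were C57BL/6 mice whose hind limb muscle was injured with barium chloride (BaCl2) for the time given, apart from the uninjured group, and all were perfused with paraformaldehyde (PFA) before the muscle stem cells were isolated. RNA was extracted from the fixed cells, poly(A) RNA was amplified with SMART-Seq v4 and libraries were cut with Tn5. The labels name neither ages nor separate animals, so p-values measure the spread between these libraries, which may be technical. The labels also name nothing that separates the 2 libraries of an early time.

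Satellite cells are the stem cells of skeletal muscle. At rest they express Pax7, receive Notch signals and are small, with little RNA and protein synthesis. On injury they switch on immediate early genes and Myod1, grow, and later divide. Fixing the tissue before isolation is meant to hold the transcripts as they were in the animal.

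Myod1 was at 3315 and 3197 CPM in the 8 h libraries. It was at 1518, 1833, 1976 and 2174 CPM in the Myod1-high libraries of 0.5, 1, 2 and 4 h, and at 81.8 to 159 CPM in the other early library of each time. These values chose the libraries and are given without a test. Pax7, the satellite cell identity factor, was at 54.6 and 35.0 CPM at 8 h, against 135, 150.5, 122 and 69.9 CPM in the Myod1-high libraries of 0.5, 1, 2 and 4 h and 554 to 987 CPM in the other early libraries. The 8 h libraries therefore lay below all 8 early libraries in Pax7.

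The 6 libraries held 22.7 M to 36.8 M counts, and all 18 libraries held 13.5 M to 36.8 M. Satellite cell markers were present. The summed level of 10 markers was 2750 and 3000 CPM at 8 h and 2810 to 5580 CPM in the Myod1-high libraries. In the other early libraries it was 3060 to 4140 CPM. Of the 10, 6 were lower in both 8 h libraries than in all 4 Myod1-high libraries (60%, against 15.7% of all genes tested). None of the 10 was higher (against 15.2%). Library 1 at 2 h differed from the rest in that satellite repeat models took 2.42% of its counts, against at most 0.0188% in any other library. Over the 2000 most variable genes, log2(CPM + 1) of the 8 h libraries correlated at 0.986 with each other. Their correlation was 0.965 and 0.960 with the Myod1-high library of 4 h, 0.916 to 0.942 with the 3 earlier Myod1-high libraries and 0.605 to 0.719 with the other early libraries. These are correlations across genes, which are not independent replicates.

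Most of the transcriptome of the 8 h libraries lay close to the Myod1-high early libraries. Over 22479 genes tested, the median absolute difference between the 8 h mean and the median of the Myod1-high libraries was 0.22 on the log2(CPM + 1) scale, and that between the 2 libraries of 8 h was 0.19. The 99th percentile was 1.61 for the first and 1.15 for the second. The first difference is between summaries of several libraries and the second between single libraries, so their sizes are not directly comparable. A gene was counted as set apart when both 8 h libraries lay at least 1 log2 unit above the highest, or below the lowest, of the 4 Myod1-high libraries. This held for 138 genes (0.614% of those tested), of which 30 were higher (0.133%) and 108 lower (0.48%) at 8 h. Without any gap, 3428 genes (15.2%) were higher in both 8 h libraries than in all 4, and 3522 (15.7%) were lower, together 30.9%. Since the early libraries were picked by a measured value, these counts carry no test. Leaving out a library relaxes the rule and can only keep or raise them. The count of 138 was 431 without the 4 h library, 281 without 8 h library 1 and 295 without 8 h library 2. Just inside the limit lay Pdgfrl, 3222401L13Rik and Gstm2-ps1, with gaps of 1.008, 1.009 and 1.013 log2 units, and just outside lay Ypel4, Abca3 and Sparc, with 0.9957, 0.9942 and 0.9936.

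**Figure D1:**
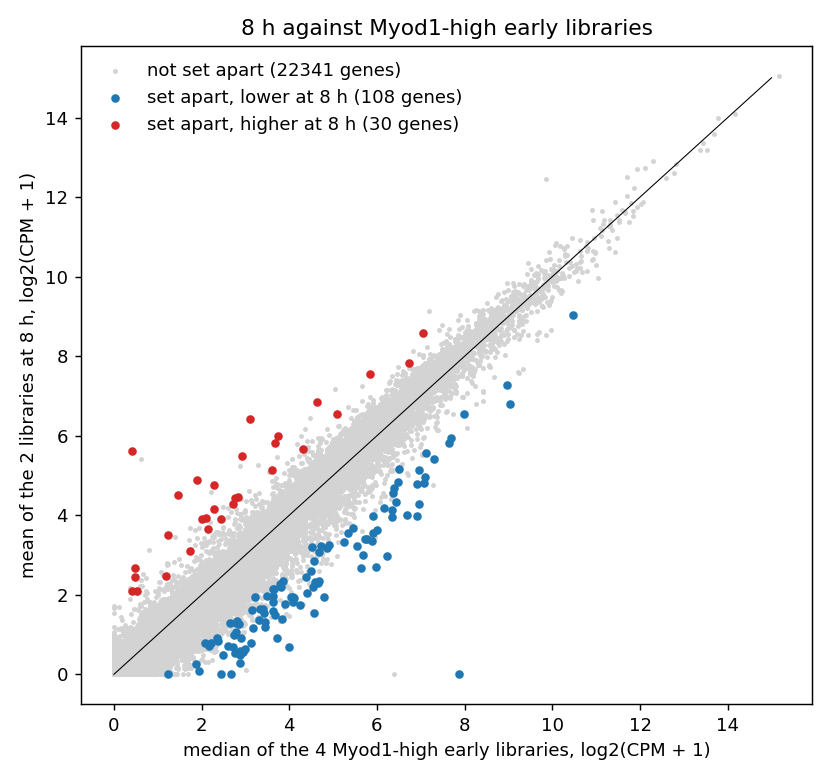
Mean log2(CPM + 1) of the 2 libraries at 8 h (vertical axis) against the median of the 4 Myod1-high early libraries (horizontal axis), 1 point per gene tested. The 30 genes set apart as higher are red, the 108 set apart as lower are blue, and the line marks equal values.

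Among the genes set apart, the Myod1-high library that came nearest to 8 h was most often that of 4 h. It was the nearest of the 4 for 18 of the 30 genes set apart as higher and for 81 of the 108 set apart as lower. For 27 of the 108 lower genes and 2 of the 30 higher genes the level stood in the order of the times, closest to 8 h at 4 h and farthest at 0.5 h. For 91 of the 108 lower genes all 4 of the other early libraries were higher still than the Myod1-high ones, while for 12 of the 30 higher genes the other early libraries were all lower still. In the 16 h libraries, 23 of the 30 and 77 of the 108 genes were also past all 4 Myod1-high libraries on the same side. All these genes were picked by their place beside the same 4 libraries. No such counts were made over all genes, so they describe the picked genes only.

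A test was made on the labelled times, with both libraries of each early time: the 8 h group against the mean of the 0.5, 1, 2 and 4 h groups, by edgeR's quasi-likelihood test over all 18 libraries with Benjamini-Hochberg adjustment. At an adjusted p under 0.05 it called 12 of 22479 genes (0.0534%), 9 higher (0.04%) and 3 lower (0.0133%), and 4184 genes had an unadjusted p under 0.05. Of the 12, 7 were also set apart in the same direction. Log2 fold changes given below with an SE are of this test, so their early side holds the other early libraries too. The count was 0 without either 8 h library, 230 without 4 h library 2, and 2 to 4 without 0.5 h library 1, either 1 h library, 2 h library 2 or 4 h library 1. DESeq2 called 2422 genes (368 higher and 2054 lower), the 12 among them. Against the 4 h group alone, edgeR called 0 genes at an adjusted p under 0.05. There 2257 genes had an unadjusted p under 0.05, the smallest adjusted p was 0.308, and DESeq2 called 471.

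The genes called higher were Mt3, Acot7, Prune2, Kcnq5, Hmga2, Prg4, Tmeff1, Mir763 and Tead4. Mt3, a metallothionein, binds zinc and copper, and its gene spans chr8:94152607-94154146 (GRCm38, plus strand). It was at 23.5 and 20.1 CPM at 8 h, against 0.899, 0.596, 2.6 and 6.7 CPM in the Myod1-high libraries of 0.5, 1, 2 and 4 h and 0.178 to 1.25 CPM in the other early libraries. No early library reached 8 h, and the log2 fold change over the early mean was 4.15 ± 0.61 (SE; edgeR, adjusted p = 0.0428). Its relatives behaved otherwise: Mt1 was at 2253 and 1760.0 CPM at 8 h within a range of 1711 to 3506 CPM in the Myod1-high libraries, and Mt2 at 2774 and 2361 CPM within 1807 to 3939 CPM.

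Acot7, an acyl-CoA thioesterase (chr4:152178134-152271855, plus strand), was at 62.7 and 48.9 CPM at 8 h and at 15.6, 5.84, 9.52 and 14.2 CPM in the Myod1-high libraries of 0.5, 1, 2 and 4 h. Both 8 h values were above all 8 early libraries, with a log2 fold change of 2.87 ± 0.40 (SE; edgeR, adjusted p = 0.0372). Prune2 (chr19:16956118-17223932, plus strand) was at 41.0 and 47.6 CPM at 8 h and at 3.37, 5.32, 7.86 and 17.8 CPM in the Myod1-high libraries of the same times, with a log2 fold change of 3.01 ± 0.41 (SE; edgeR, adjusted p = 0.0372). Its level was higher at each later time within the Myod1-high libraries. Acot7 and Prune2 were at 78.9 CPM or more and 62.6 CPM or more in the 16 h libraries.

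Hmga2, a chromatin protein of growing embryonic and stem cells (chr10:120361275-120476469, minus strand), was low but separate: 4.20 and 4.74 CPM at 8 h, against 0.351 to 0.498 CPM in the Myod1-high libraries and 0.0891 to 0.281 CPM in the other early libraries. Its log2 fold change was 3.91 ± 0.44 (SE; edgeR, adjusted p = 0.0102), and it stood at 25 and 77.5 CPM at 16 h. Mir763 is a separate model that lies within Hmga2; its values were 0.902 and 0.794 CPM at 8 h, and reads of the 2 models cannot be told apart here. Poly(A) RNA does not capture the mature microRNA. Kcnq5, a potassium channel subunit, was at 6.04 and 4.77 CPM at 8 h and at 0.1 to 0.712 CPM in the Myod1-high libraries (edgeR, adjusted p = 0.0102). Tead4, a transcription factor of the Hippo pathway that also acts in myogenesis, was at 2.27 and 2.29 CPM at 8 h, against 0 CPM in the Myod1-high libraries of 0.5, 1 and 2 h and 1.13 CPM in that of 4 h (edgeR, adjusted p = 0.0487). Tead4 and Prg4, which encodes the lubricating protein lubricin, were called without being set apart, as was Tmeff1.

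**Figure D2:**
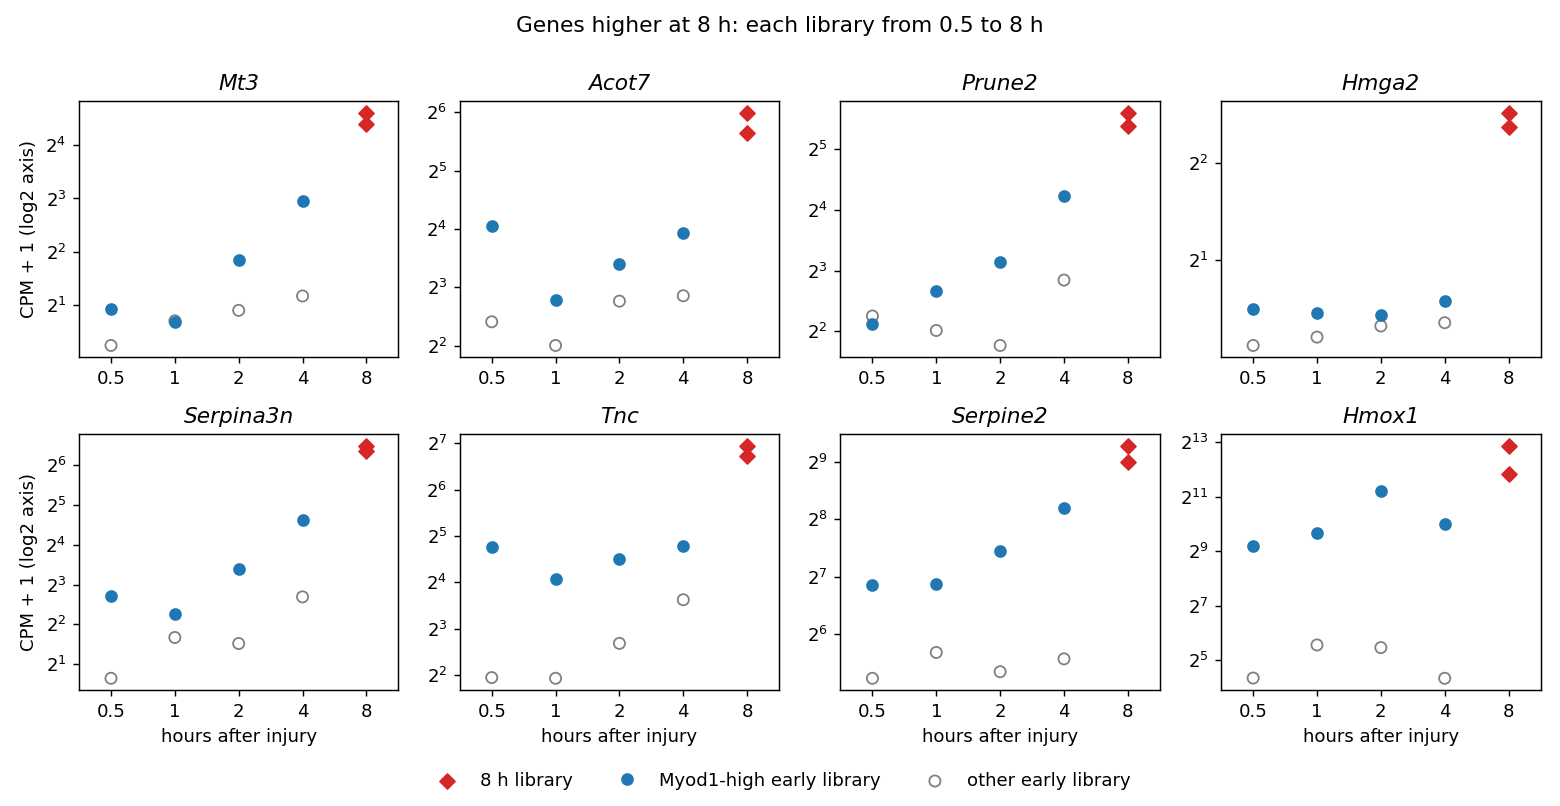
CPM + 1 on a log2 axis for 8 genes higher at 8 h, against hours after injury, 1 point per library: red diamonds for 8 h, blue for the Myod1-high early library and open grey for the other early library. Mt3, Acot7, Prune2 and Hmga2 were called by the test; Serpina3n and Tnc were set apart without being called; Serpine2 and Hmox1 did not overlap but were not set apart.

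Other genes set apart as higher, named here after their values were seen, included some for secreted and matrix proteins. Serpina3n, a serine protease inhibitor, was at 89.4 and 81.0 CPM at 8 h, against 5.54, 3.83, 9.57 and 23.9 CPM in the Myod1-high libraries of 0.5, 1, 2 and 4 h; its log2 fold change over the early mean was 4.02 ± 0.74 (SE; edgeR, adjusted p = 0.106). Tnc, which encodes the matrix protein tenascin-C, was at 106 and 123 CPM at 8 h and at 26.1, 15.8, 21.6 and 26.5 CPM in the same libraries, and at 603 and 442 CPM at 16 h (edgeR, adjusted p = 0.122). Il11, a cytokine of the interleukin-6 family, was at 59.8 and 64.5 CPM at 8 h and at 6.29 to 20.6 CPM in the Myod1-high libraries (edgeR, adjusted p = 0.161). Both 8 h libraries were above all early ones in each of these genes, but none passed the test. Adam12, a metalloprotease that marks regenerating muscle, was at 15 and 13.3 CPM at 8 h and at 2.98 to 4.31 CPM in the Myod1-high libraries (log2 fold change 2.15 ± 0.34, SE; edgeR, adjusted p = 0.0556). Serpine2, an inhibitor of thrombin and plasminogen activators, did not overlap but was not set apart, at 507 and 620.2 CPM at 8 h and at 114, 117, 174 and 293 CPM in the Myod1-high libraries of 0.5, 1, 2 and 4 h (edgeR, adjusted p = 0.117).

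Genes that protect cells against oxidants and metals were higher at 8 h in many members and lower without overlap in 0. Of 24 Nrf2 targets and metallothioneins tested, 12 were higher in both 8 h libraries than in all 4 Myod1-high libraries (50%, against 15.2% of all genes) and 0 lower (against 15.7%). The median difference was 0.51 on the log2(CPM + 1) scale, against -0.01 for all genes. Only Mt3 passed the test (edgeR), and 2 of the 24, Mt3 and Nqo1, were set apart. Hmox1, the haem-degrading enzyme haem oxygenase 1, was at 3680.0 and 7571 CPM at 8 h and at 589, 821, 2383 and 1034 CPM in the Myod1-high libraries of 0.5, 1, 2 and 4 h, while the other early libraries held 19.2 to 46.2 CPM (edgeR, adjusted p = 0.216). The 2 libraries of 8 h differed widely in Hmox1, and the lower of them was less than 1 log2 unit above the highest early library. Nqo1, a quinone reductase, was at 13.4 and 20.1 CPM at 8 h and at 2.47 to 5.16 CPM in the Myod1-high libraries (edgeR, adjusted p = 0.117). Gclm, a subunit of the enzyme that starts glutathione synthesis, overlapped, with 197 and 509.6 CPM at 8 h and 89.3 to 346 CPM in the Myod1-high libraries. The motif TGACNNNGC of the Nrf2 response element was in 5 of the 20 promoters of the list that were in the table (25%), against 10.1% of all 27025 promoters. It was in 4 of 28 promoters of the proteasome list (14.3%). The first list was chosen as Nrf2 targets and metallothioneins, so its share above all promoters does not bear on 8 h.

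Genes of amino acid supply leaned the same way. Of 21 targets of the stress factor Atf4 and amino acid transporters, 11 were higher in both 8 h libraries (52.4%), 0 lower and 10 overlapped. Of all genes 15.2% were higher and 15.7% lower. The median difference of the list was 0.44 and 0 members were called (edgeR). Slc7a11, the cystine importer, was at 29.5 and 45.9 CPM at 8 h and at 4.68, 5.84, 19.7 and 11.8 CPM in the Myod1-high libraries of 0.5, 1, 2 and 4 h (edgeR, adjusted p = 0.145). Asns, asparagine synthetase, was set apart at 13 and 15.2 CPM at 8 h, against 3.05 to 5.39 CPM in the Myod1-high libraries (edgeR, adjusted p = 0.141). Atf4 itself was at 1022 and 1100.0 CPM at 8 h and at 736 to 930.3 CPM in the Myod1-high libraries. The Atf4 half-element TGATGNAA, searched on both strands in the 250 bases before each gene's start, was in 4 of the 17 promoters of the list that were in the table (23.5%), against 3.53% of all 27025 promoters. The promoters of Slc7a11 and Asns are shown since they hold the match and had the widest difference among such members; capitals mark the matches, 2 in Slc7a11 and 1 in Asns, and the sequences are RefSeq's on GRCm38.p6, 5′ to 3′.
Slc7a11, chr3:50443614-50443863, minus strand: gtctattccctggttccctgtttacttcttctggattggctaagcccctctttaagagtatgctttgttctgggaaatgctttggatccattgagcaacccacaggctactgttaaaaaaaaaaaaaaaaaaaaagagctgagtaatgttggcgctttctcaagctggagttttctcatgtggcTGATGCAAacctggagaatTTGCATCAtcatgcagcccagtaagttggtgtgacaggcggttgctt
Asns, chr6:7693210-7693459, minus strand: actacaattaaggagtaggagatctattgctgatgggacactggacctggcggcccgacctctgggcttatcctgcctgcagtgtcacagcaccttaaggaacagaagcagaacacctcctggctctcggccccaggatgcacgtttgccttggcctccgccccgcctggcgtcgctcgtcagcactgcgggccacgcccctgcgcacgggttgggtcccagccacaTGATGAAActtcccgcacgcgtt
The match nearest to the gene's start began 47 bases before it in Slc7a11 and 23 bases before it in Asns. A match is a description of the letters and not a measured binding site. The list was chosen as Atf4 targets and amino acid transporters, so its share above all promoters does not bear on 8 h.

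Genes of protein synthesis and turnover were higher by small steps in most members. The proteasome is the complex that degrades tagged proteins. Among 34 genes of the constitutive proteasome, its activators and its regulator, 30 were higher in both 8 h libraries than in all 4 Myod1-high libraries (88.2%, against 15.2% of all genes). Of the 34, 0 were lower (against 15.7%), and the median difference was 0.42. None was set apart or called, and 17 had an unadjusted p under 0.05, all of them higher (edgeR). Psmd14, the deubiquitinase of the lid, was at 129 and 114 CPM at 8 h, against 74.9, 68.2, 66.2 and 80.1 CPM in the Myod1-high libraries of 0.5, 1, 2 and 4 h and 38.5 to 69.0 CPM in the other early libraries (log2 fold change 0.90 ± 0.25, SE; edgeR, adjusted p = 0.13). Psmb4, Psme3, Psme4 and the regulator Nfe2l1 overlapped. Relative to 8 h, the median member was at -0.44, -0.52, -0.41 and -0.35 log2 units in the Myod1-high libraries of 0.5, 1, 2 and 4 h and at -1.71 to -1.19 in the other early libraries.

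The ribosome biogenesis list, which makes and exports ribosomal subunits, had 33 of 50 members higher (66%, against 15.2% of all genes) and 0 lower (against 15.7%). Its median difference was 0.31. The E-box CACGTG was in 3 of its 44 promoters in the table (6.8%), against 6.05% of all promoters. Utp20, a factor of small-subunit processing, was at 98.1 and 102 CPM at 8 h and at 41.0, 41.0, 52.3 and 49.5 CPM in the Myod1-high libraries of 0.5, 1, 2 and 4 h (log2 fold change 1.58 ± 0.38, SE; edgeR, adjusted p = 0.122). Npm1, nucleophosmin, was at 1570.0 and 1587 CPM at 8 h and at 833 to 1095 CPM in the Myod1-high libraries. Most of the distance between 8 h and the other early libraries in this list was also found in the Myod1-high ones: its median member was 0.25 to 0.44 log2 units below 8 h in the Myod1-high libraries and 2.26 to 2.64 below it in the other early libraries.

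Related lists had the same lean, where of all genes 15.2% were higher and 15.7% lower. Of 19 cytosolic aminoacyl-tRNA synthetases, the enzymes that charge tRNAs, 12 were higher and 0 lower (median difference 0.53), with Sars at 152 and 189 CPM at 8 h and 78.9 to 124 CPM in the Myod1-high libraries. Of 35 nuclear import and export genes, 23 were higher and 0 lower (median 0.39), with the importin Kpnb1 at 337 and 307 CPM at 8 h and 161 to 212 CPM in the Myod1-high libraries. Of 39 genes of the mitochondrial ribosome and import, 27 were higher and 1, Mrpl4, lower (median 0.32), and Tomm40, the pore of the outer membrane, was at 363 and 391 CPM at 8 h and 179.7 to 284 CPM in the Myod1-high libraries. No member of these 3 lists was called (edgeR). Of 38 nuclear respiratory chain genes 9 were higher and 4 lower (median 0.10). These counts were 11 higher and 15 lower without 8 h library 1 (24.7% and 24.6% of all genes), 17 higher and 5 lower without 8 h library 2 (24% and 24.3% of all genes), and 4 higher and 4 lower when scaled by library totals.

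Of 18 genes of polyamine and one-carbon metabolism 12 were higher (66.7%, against 15.2% of all genes) and 1, Mat2a, lower (median 0.58). Shmt2, the mitochondrial serine hydroxymethyltransferase that feeds one-carbon units, was at 153 and 209 CPM at 8 h and at 73.1 to 83.2 CPM in the Myod1-high libraries (edgeR, adjusted p = 0.117). Odc1, the first enzyme of polyamine synthesis, overlapped at 1110.0 and 1070.0 CPM at 8 h and 1078 to 1428 CPM in the Myod1-high libraries. Slc19a1, the reduced folate carrier, was set apart and named after its values were seen, at 93.4 and 92.2 CPM at 8 h and 25.9 to 35.9 CPM in the Myod1-high libraries (edgeR, adjusted p = 0.106). Of 22 genes of nucleotide synthesis 14 were higher (63.6%) and 3 (Prps2, Tk1 and Dhodh) lower. The lower counts of both lists were under the 15.7% of all genes. Myc, a known regulator of such genes, did not separate, with 2825 and 3197 CPM at 8 h and 2675 to 3049 CPM in the Myod1-high libraries, against 202 to 879 CPM in the other early libraries.

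**Figure D3:**
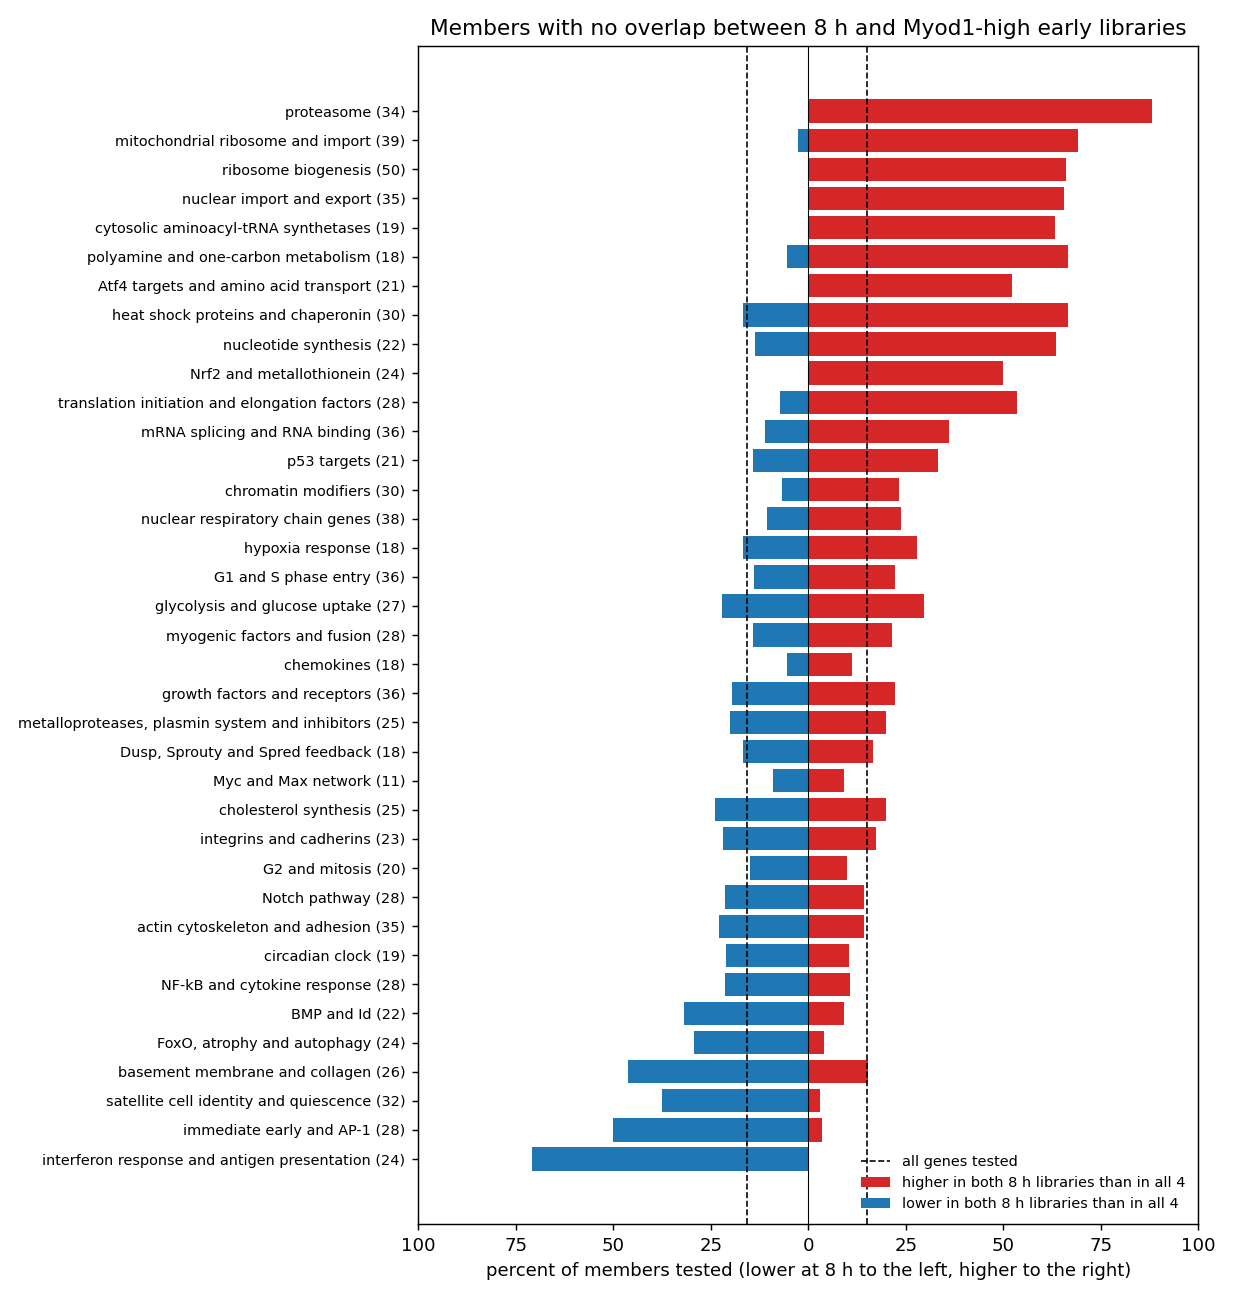
Percent of the tested members of each pathway list (number in brackets) that were higher (red, right) or lower (blue, left) in both 8 h libraries than in all 4 Myod1-high early libraries. The dashed lines mark all genes tested, 15.2% higher and 15.7% lower.

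Of 30 heat shock and chaperonin genes 20 were higher (66.7%, against 15.2% of all genes). Among them were Hspa8 and the chaperonin subunits Cct2, Cct3 and Cct5. The 5 lower members, a share near the 15.7% of all genes, were Hspa1a, Hspa1b, Hspb1, Dnajb1 and Bag3, which are known to be stress-inducible. Without the Myod1-high 4 h library 8 were lower (26.7%, against 21.3% of all genes). Hspa8, the constitutive Hsp70, was at 6725 and 6834 CPM at 8 h and at 4284 to 6020.0 CPM in the Myod1-high libraries. Hspa1a, the inducible Hsp70, was at 372 and 361 CPM at 8 h, against 961, 891, 1697 and 677 CPM in the Myod1-high libraries of 0.5, 1, 2 and 4 h and 3546 to 6438 CPM in the other early libraries (log2 fold change -3.01 ± 1.03, SE; edgeR, adjusted p = 0.171). Hspa1a and Hspa1b are near-identical copies, so how their reads were divided is uncertain.

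Immediate early genes are the first transcripts made after a stimulus. The list of them with the AP-1 factors had 28 members tested. Of these, 14 were lower in both 8 h libraries than in all 4 Myod1-high libraries (50%, against 15.7% of all genes). Only 1 (Egr3) was higher (3.57%, against 15.2%) and 13 overlapped, with a median difference of -0.33 and 0 called (edgeR). Junb was at 1434 and 1715 CPM at 8 h and at 2899, 2627, 3129 and 2483 CPM in the Myod1-high libraries of 0.5, 1, 2 and 4 h (log2 fold change -1.10 ± 0.52, SE; edgeR, adjusted p = 0.272). Fos was at 1975 and 2036 CPM at 8 h and at 2644 to 3000.0 CPM in the Myod1-high libraries. Egr1 overlapped, with 2535 and 3631 CPM at 8 h and 3063 to 5129 CPM in the Myod1-high libraries. Even so, all 3 genes were far above the uninjured libraries, which held 48.6 and 55.6 CPM of Junb, 91.5 and 54.6 CPM of Fos and 793 and 457 CPM of Egr1.

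Interferon response and antigen presentation was, among the pathway lists, the one with the largest share of lower members. Of 24 genes tested 17 were lower in both 8 h libraries (70.8%, against 15.7% of all genes), 0 were higher (against 15.2%) and 7 overlapped. The median difference was -0.70 and 0 were called (edgeR). Irf7 and Irf1, transcription factors of the interferon response, were set apart. Irf7 was at 3.69 and 3.18 CPM at 8 h and at 11.8, 10.5, 13.3 and 11 CPM in the Myod1-high libraries of 0.5, 1, 2 and 4 h (edgeR, adjusted p = 0.201). Irf1 was at 36 and 34 CPM at 8 h and at 89.3, 90.4, 116 and 76.6 CPM in the same libraries (edgeR, adjusted p = 0.171). The immunoproteasome subunits Psmb8 and Psmb9 went the other way from most of the proteasome list. Psmb8 was at 6.59 and 4.89 CPM at 8 h and at 7.61 to 15.1 CPM in the Myod1-high libraries, and Psmb9 at 0.392 and 0 CPM at 8 h and at 1.35 to 3 CPM. Tap1, the peptide transporter of antigen presentation, was at 4.28 and 5.78 CPM at 8 h and at 7.51 to 20.8 CPM in the Myod1-high libraries (log2 fold change -1.55 ± 0.37, SE; edgeR, adjusted p = 0.122). At 16 h the list's median member was -0.31 and -0.53 log2 units relative to 8 h.

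The core of the interferon-stimulated response element, GAAA followed after any 2 bases by GAAA, was in 10 of the 21 promoters of that list that were in the table (47.6%), against 3.04% of all 27025 promoters, on either strand within 250 bases before the start. The list was chosen as interferon response and antigen presentation genes, so this excess does not bear on 8 h. Of the 14 members with a promoter that were lower without overlap, 4 held the element, a smaller share than in the whole list. Those of Stat2 and Bst2, a signal transducer and a membrane protein that tethers virus particles, are shown because they had the widest difference among these; capitals mark the match, which in Stat2 reads on the opposite strand and in Bst2 is 2 overlapping matches.
Stat2, chr10:128270248-128270497, plus strand: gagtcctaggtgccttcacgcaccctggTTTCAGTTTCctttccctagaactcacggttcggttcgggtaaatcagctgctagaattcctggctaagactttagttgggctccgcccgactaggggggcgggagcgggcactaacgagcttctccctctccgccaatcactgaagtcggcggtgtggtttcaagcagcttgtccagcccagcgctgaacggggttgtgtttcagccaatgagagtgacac
Bst2, chr8:71537473-71537722, minus strand: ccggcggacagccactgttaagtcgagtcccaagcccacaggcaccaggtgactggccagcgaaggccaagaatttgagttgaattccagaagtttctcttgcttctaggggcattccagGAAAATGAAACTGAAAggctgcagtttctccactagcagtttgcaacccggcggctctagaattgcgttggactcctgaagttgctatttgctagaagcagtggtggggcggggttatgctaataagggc
Stat2 was at 17.4 and 15.4 CPM at 8 h and at 37.2, 23.3, 27.0 and 34.3 CPM in the Myod1-high libraries of 0.5, 1, 2 and 4 h. Bst2 was at 5.33 and 4.61 CPM at 8 h and at 9.06, 8.86, 6.76 and 8.20 CPM. The groups did not overlap in either gene.

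Of the genes called lower, Dpt had the highest level. It encodes dermatopontin, a small matrix protein, and spans chr1:164796644-164824266 (plus strand). It was at 62.7 and 57.3 CPM at 8 h, against 234, 237, 174 and 170.0 CPM in the Myod1-high libraries of 0.5, 1, 2 and 4 h and 216 to 280.3 CPM in the other early libraries. Both 8 h libraries lay below all 8 early libraries (log2 fold change -1.90 ± 0.27, SE; edgeR, adjusted p = 0.0372). Dpt is also a marker of fibro-adipogenic cells, and the summed level of 12 such markers was 876 and 739 CPM at 8 h, 1250 to 1580 CPM in the Myod1-high libraries and 2240 to 2790 CPM in the other early libraries. Of these 12 markers, which include Dpt, 3 were lower without overlap (25%, against 15.7% of all genes). Of the rest, 1 was higher (8.33%, against 15.2%), and 0 were at 0 at 8 h. Their median difference from the Myod1-high libraries was 0.33, so the median marker was higher at 8 h although the sum was lower. The part of these cells in the Dpt result was not tested. In bulk samples, fewer cells of a type and less RNA per cell cannot be told apart.

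Dzip1 and Cetn4, proteins of cilia and centrioles, had 0 counts in both 8 h libraries. Dzip1 was at 5.66, 6.48, 3.21 and 2.54 CPM in the Myod1-high libraries of 0.5, 1, 2 and 4 h and at 13 to 15.2 CPM in the other early libraries (edgeR, adjusted p = 0.0372). Against a limit of 3 counts over the 8 h libraries (0.0515 CPM), the 8 h level was at least 86-fold lower than the Myod1-high median of 4.43 CPM. Cetn4 was at 0.634 to 1.5 CPM in the Myod1-high libraries, and the 8 h level was at least 23.2-fold lower than their median of 1.2 CPM (edgeR, adjusted p = 0.0372). These limits cover counting error only.

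**Figure D4:**
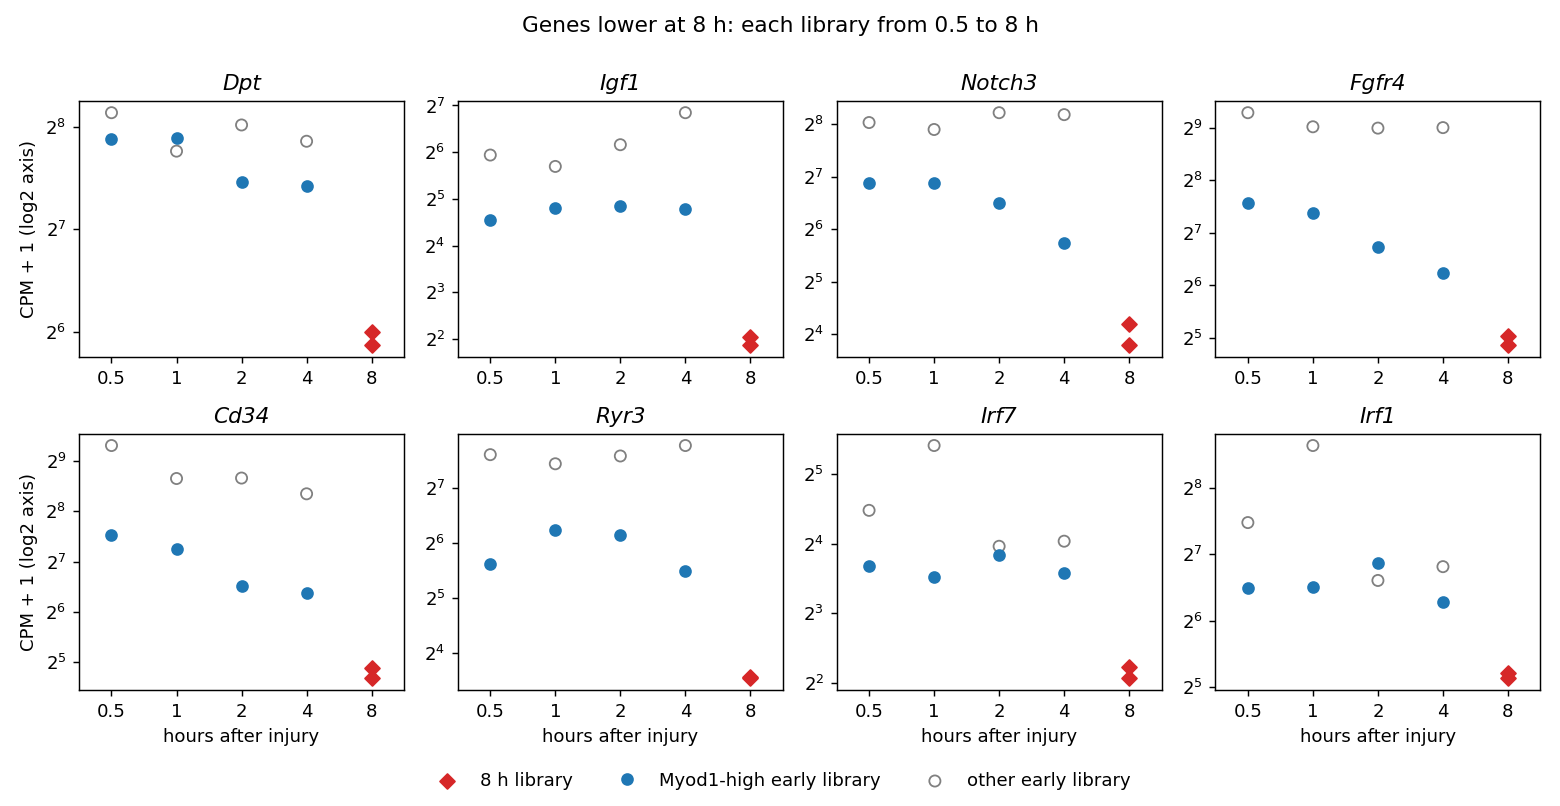
CPM + 1 on a log2 axis for 8 genes lower at 8 h, against hours after injury, 1 point per library: red diamonds for 8 h, blue for the Myod1-high early library and open grey for the other early library. All 8 were set apart, and Dpt was called by the test.

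Some genes of the resting satellite cell were lower at 8 h than in the Myod1-high libraries. Of 32 identity and quiescence genes 12 were lower in both 8 h libraries (37.5%, against 15.7% of all genes). Among the rest, 1 (Itgb1) was higher (3.12%, against 15.2%) and 19 overlapped (median difference of the list -0.33, 0 called by edgeR). Notch3, Col15a1, Ryr3, Fgfr4 and Cd34 were set apart. Notch3, a Notch receptor, was at 17.3 and 12.7 CPM at 8 h and at 117, 116, 88.9 and 52.4 CPM in the Myod1-high libraries of 0.5, 1, 2 and 4 h, against 238 to 298 CPM in the other early libraries (log2 fold change over the early mean -3.60 ± 0.88, SE; edgeR, adjusted p = 0.122). Its difference from the Myod1-high median was -2.69 on the log2(CPM + 1) scale. Notch1 did not share this, at 106 and 102 CPM at 8 h and 102 to 114 CPM in the Myod1-high libraries. Notch3 is also a pericyte marker, and the sum of 12 pericyte and smooth muscle markers was 858 and 959 CPM at 8 h, 1120 to 1530 CPM in the Myod1-high and 1080 to 1610 CPM in the other early libraries. Of those markers 4 were lower (33.3%, against 15.7% of all genes), 0 higher (against 15.2%) and 0 at 0 at 8 h. The part of these cells in the Notch3 values was not tested.

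Fgfr4, a fibroblast growth factor receptor of satellite cells, was at 28.1 and 32.0 CPM at 8 h and at 188, 164, 105 and 74.0 CPM in the Myod1-high libraries of 0.5, 1, 2 and 4 h. The other early libraries held 507 to 621 CPM. Its log2 fold change over the early mean was -3.47 ± 0.93 (SE; edgeR, adjusted p = 0.128). The difference from the Myod1-high median was -2.10 on the log2(CPM + 1) scale. Cd34, a surface sialomucin, was at 24.7 and 28.7 CPM at 8 h and at 185, 150.5, 90.2 and 82.4 CPM in the Myod1-high libraries of the same times (edgeR, adjusted p = 0.122). Both followed the order of the times in the Myod1-high libraries. Ryr3, a calcium release channel, was at 10.8 and 10.6 CPM at 8 h and at 43.8 to 73.9 CPM in the Myod1-high libraries (edgeR, adjusted p = 0.129); uninjured cells held 1686 and 1661 CPM of Ryr3. Peg3, an imprinted zinc finger gene, was lower without being set apart, at 197 and 213 CPM at 8 h and 420.4 to 669 CPM in the Myod1-high libraries (edgeR, adjusted p = 0.117). Myf5, the myogenic factor of committed satellite cells, overlapped at 939 and 974 CPM at 8 h and 679.8 to 1193 CPM in the Myod1-high libraries, as did Calcr, Vcam1 and Pax3.

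**Figure D5:**
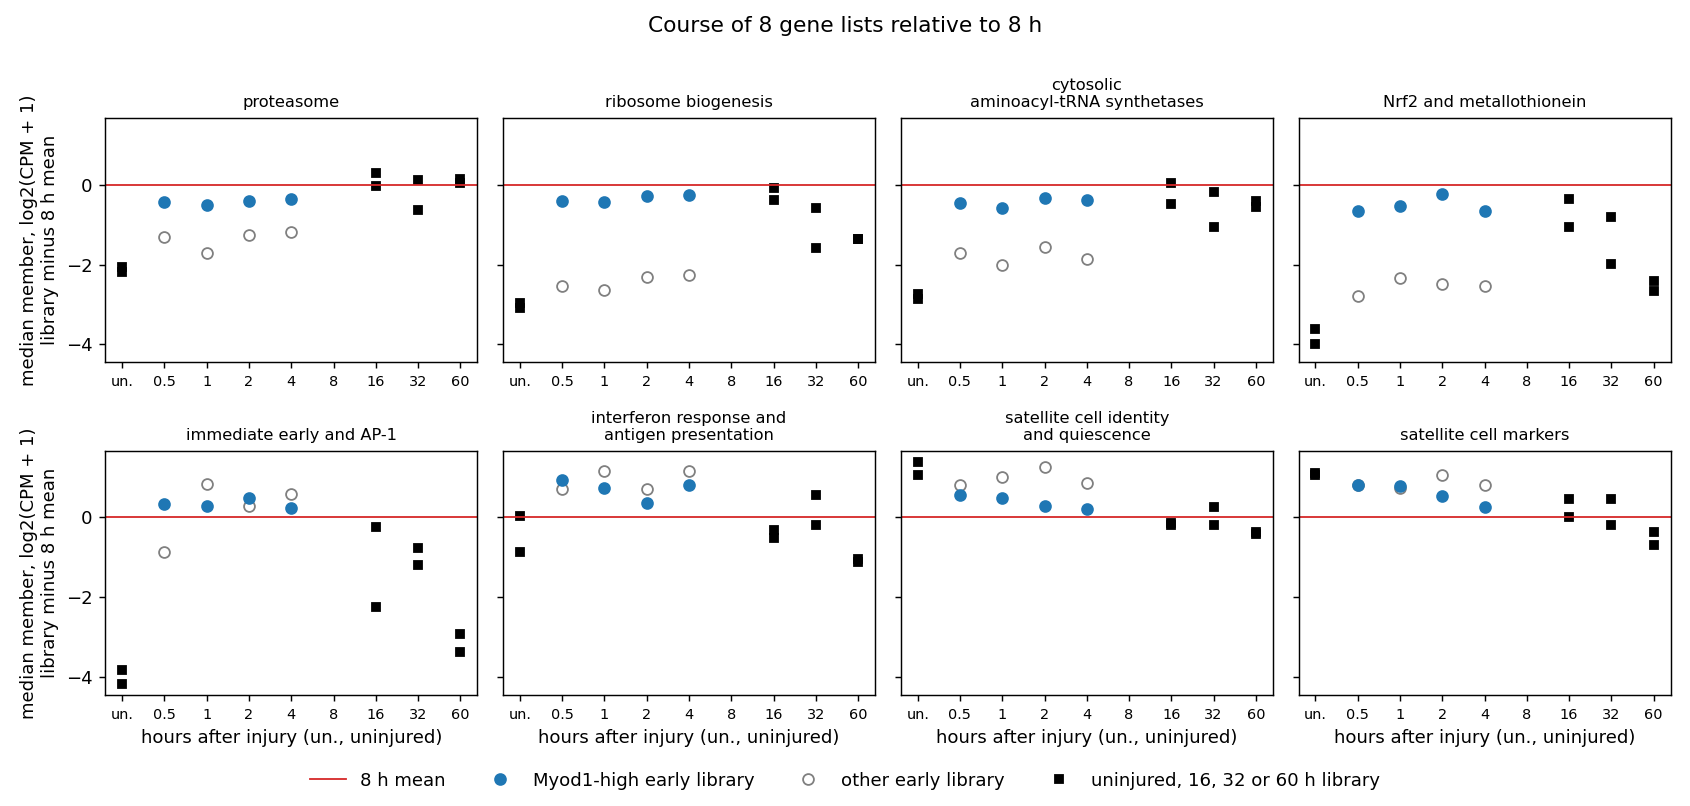
Median over the members of 8 gene lists of log2(CPM + 1) in a library minus the 8 h mean, against time after injury: blue for the Myod1-high early library, open grey for the other early library, black for uninjured, 16, 32 and 60 h, and a red line at the 8 h mean. The ribosome biogenesis list lay at -0.44 to -0.25 in the Myod1-high libraries and at -2.64 to -2.26 in the other early ones.

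Of 36 growth factors and receptors tested, 8 were higher (22.2%), 7 lower (19.4%) and 21 overlapped, against 15.2% and 15.7% of all genes, and 0 were called (edgeR). The higher count was 14 (38.9%) without 8 h library 1 or without the Myod1-high 0.5 h library, where 24.7% and 17.8% of all genes were higher. Igf1, insulin-like growth factor 1, was set apart at 2.63 and 3.12 CPM at 8 h, against 22.2, 27.1, 27.9 and 26.4 CPM in the Myod1-high libraries of 0.5, 1, 2 and 4 h and 50.8 to 114 CPM in the other early libraries (log2 fold change -4.08 ± 0.88, SE; edgeR, adjusted p = 0.108). Igf2r, which clears insulin-like growth factor 2, was at 35.4 and 31.6 CPM at 8 h and at 69.0 to 112 CPM in the Myod1-high libraries (edgeR, adjusted p = 0.106). Fst, the activin and myostatin antagonist follistatin, was at 25.7 and 33.9 CPM at 8 h and at 8.82 to 14.3 CPM in the Myod1-high libraries (edgeR, adjusted p = 0.145).

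Of 26 basement membrane and collagen genes 12 were lower (46.2%, against 15.7% of all genes). Another 4 (Tnc, Nid1, Col4a1 and Col4a2) were higher, and 0 were called (edgeR). The higher count is near the 15.2% of all genes, and it was 10 without 8 h library 2 (38.5%, against 24% of all genes). Col4a1, a chain of basement membrane collagen IV, was at 632 and 664 CPM at 8 h and at 404, 326, 310.0 and 467 CPM in the Myod1-high libraries of 0.5, 1, 2 and 4 h (log2 fold change 0.95 ± 0.23, SE; edgeR, adjusted p = 0.122). Nid1, nidogen 1, which links laminin to collagen IV, was at 72.3 and 77.5 CPM at 8 h and at 25.4 to 49.6 CPM in the Myod1-high libraries (edgeR, adjusted p = 0.117). Col15a1 was at 1.49 and 1.77 CPM at 8 h and at 6.79 to 21.4 CPM in the Myod1-high libraries, and the laminin chain Lama3 at 2.90 and 2.78 CPM at 8 h and at 8.02 to 16.8 CPM. Sparc, a collagen-binding matrix protein, was at 203 and 187 CPM at 8 h and at 405 to 718 CPM in the Myod1-high libraries (edgeR, adjusted p = 0.117), and Col3a1 at 130.3 and 141 CPM at 8 h and at 226 to 403 CPM. Col3a1 is on the fibro-adipogenic marker list whose sums are given with Dpt.

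Cell cycle and differentiation genes had counts near those of all genes, of which 15.2% were higher and 15.7% lower. Of 36 genes of G1 and S phase entry 8 were higher (22.2%) and 5 lower (13.9%). Of 20 genes of G2 and mitosis 2 were higher (10%) and 3 lower (15%), with 0 called in either list (edgeR). Cdk6, a G1 kinase, was at 52.5 and 43.4 CPM at 8 h and at 17.7 to 34.9 CPM in the Myod1-high libraries (log2 fold change 1.21 ± 0.26, SE; edgeR, adjusted p = 0.108), and Mcm4, a subunit of the replicative helicase, was at 10.6 and 15.1 CPM at 8 h and at 18.1 to 30.2 CPM. Ccnd1, cyclin D1, overlapped at 22.7 and 15.2 CPM at 8 h and 17.1 to 46.7 CPM in the Myod1-high libraries. Of 28 myogenic and fusion genes 6 were higher (21.4%) and 4 lower (14.3%). Myog, the factor of terminal differentiation, was at 0.275 and 0.183 CPM at 8 h and at 0.498 to 1.69 CPM in the Myod1-high libraries, and Myf6 at 0.942 and 0.733 CPM at 8 h and at 2.35 to 3.05 CPM.

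Markers of other cells were counted in the same way, where of all genes 15.2% were higher and 15.7% lower. The lists are short, so 1 marker can move a share widely. Among 14 endothelial markers 0 were higher and 0 lower. Their sum was 248 and 174 CPM at 8 h, 128 to 342 CPM in the Myod1-high libraries and 101 to 254 CPM in the other early ones. The 14 macrophage and monocyte markers summed to 40.8 and 40.1 CPM at 8 h and 24.5 to 146 CPM in the Myod1-high libraries, with 0 higher and 1 lower. Of 9 neutrophil markers 3 were lower and 1 higher. The 3 lower ones, Ngp, Ltf and Camp, which are granule proteins, were set apart, and Ltf was at 0 at 8 h. The sums were 27.0 and 23.5 CPM at 8 h, 11.1 to 126 CPM in the Myod1-high libraries and 3.3 to 48.4 CPM in the other early libraries. Of 20 muscle fibre markers 4 were lower (20%, near the 15.7% of all genes) and 0 higher, with Myh2 and Myh7 at 0 at 8 h. The sums were 179 and 100 CPM at 8 h against 184 to 372 CPM in the Myod1-high libraries. Without 8 h library 1, 11 of these markers were lower and 0 higher (24.6% and 24.7% of all genes). Without 8 h library 2, 4 were lower and 2 higher (24.3% and 24% of all genes). Of 7 tenocyte markers 4 (Thbs4, Fmod, Comp and Kera) were higher and 2 (Scx and Mkx) lower, with sums of 165 and 82.4 CPM at 8 h, 32.2 to 73.9 CPM in the Myod1-high libraries and 75.2 to 153 CPM in the other early libraries. Of 6 lymphocyte markers 2 were lower and 0 higher, Nkg7 was at 0 at 8 h, and the sums of 1.49 and 1.83 CPM at 8 h were below the 2.81 to 6.96 CPM of the Myod1-high and the 3.66 to 9.79 CPM of the other early libraries. Their part in the lower values of the interferon and antigen presentation list was not tested. Of 5 red cell markers 1 was lower and 0 higher. Their sums were 83.0 and 43.1 CPM at 8 h and 61.4 to 159 CPM in the Myod1-high libraries. Without 8 h library 1 or the Myod1-high 1 h library all 5 were lower (24.6% and 17.7% of all genes). Of 8 Schwann and glial markers 0 were higher and 0 lower, with sums of 148 and 134 CPM at 8 h and 133 to 165 CPM in the Myod1-high libraries. The part of these cells in the results above was not tested.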

How the data were processed

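Per the submitters' processing notes, Trimmomatic 0.36, HISAT2 2.1.0, SAMtools 1.3, StringTie 1.3.3 and the mm10 build were used; which program counted the reads, on which strand and with which annotation is not given in the sources used here. The authors deposited raw counts per gene for 55450 gene models, and all of these identifiers were found in GENCODE M21 (GRCm38), which gave the gene coordinates. CPM were computed with TMM scaling. The test was edgeR 4.0.16 (quasi-likelihood) in R 4.3.3 over the 18 libraries of the activation table, with 9 groups of 2; filterByExpr (minimum count 10, minimum total 15) left 22479 genes, and p-values were adjusted over all of them. DESeq2 1.42.0 was an alternative, and limma 3.58.1 is loaded by edgeR. The scripts were tested on simulated data. The members and gene lists were chosen with earlier results of these data known.

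Differences from the Myod1-high libraries are 8 h mean minus median of the 4 on the log2(CPM + 1) scale. The test does not use that choice of libraries, but its early groups contain them. Named genes were those called, set apart in the same direction and at 20 CPM or more in the higher group, up to 4 members of each list by adjusted p, and a panel of 20 genes of which 0 were called, 5 were higher and 6 lower without overlap; others were chosen after their values were seen. Promoters are RefSeq's table (GRCm38.p6), searched in the 250 bases before the start. Where a list holds fewer genes tested than it names, the rest had too few counts.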

Additional observations from a re-analysis of the deposited data

How the results depend on the processing

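The counts depended on the settings. For 8 h against the mean of the early times, 12 genes were called in the test as reported, 13 with RLE factors, 1316 with no filter on low counts (273 higher, 1043 lower), 2422 with DESeq2 (368 higher, 2054 lower), 0 with only the 0.5 to 8 h libraries fitted, and 0 to 230 when 1 library was left out. Against 4 h, 306 genes were called with no filter and 471 with DESeq2 (48 higher, 423 lower), and 0 to 1 when 1 library was left out. The cause was not tested. The count of 138 set apart was 367 with an offset of 0.25, 56 with an offset of 4, 6950 with no overlap alone, 4 with a gap of 2 log2 units, and 144 to 431 when 1 library was left out. Scaling by library totals gave 2893 genes higher and 3820 lower without overlap, in place of 3428 and 3522. Under it, added after the data were seen, the count of higher members moved by over 1.5 times in 9 lists, all downward: respiratory chain 4 and not 9, G1 and S phase 5 and not 8, cholesterol 3 and not 5, actin 3 and not 5, Dusp and Sprouty 1 and not 3, NF-kB 1 and not 3, chemokines 1 and not 2, BMP and Id 1 and not 2, and immediate early 0 and not 1, while proteasome genes were 28, ribosome biogenesis genes 34 and lower interferon genes 17. Members were also recounted, again added later, with 1 of the 6 libraries left out. Higher members were then 30 to 31 for the proteasome and 33 to 45 for ribosome biogenesis. Lower members were 17 to 21 for interferon, 14 to 20 for immediate early and 12 to 17 for identity genes. Leaving out a library relaxes the rule, so these counts could only stay or rise and do not measure stability. Over all genes, 3797 to 5553 were then higher and 3972 to 5528 lower.

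With the replicate block, 2 genes were called against the early mean and 0 against 4 h. Over 36 pairs of groups the deviations of same-numbered libraries correlated at -0.816 to 0.772, at or under 0.1 in 28, so the numbers were not taken to pair the libraries.

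Of the named genes, Pax7, Myog and Notch3 passed the threshold with no filter (log2 fold changes -3.22, -3.56 and -3.54) and with DESeq2 (-3.31, -3.67 and -3.62), Ccnd1 with DESeq2 (-1.41) and Notch3 without 4 h library 2 (-3.79). Uncalled values near 0 changed sign: Notch1 was at -0.000229 with RLE factors, -0.000203 with DESeq2 and -0.0104 to 0.059 when 1 library was left out, and over the same fits Egr1 was at -0.368 to 0.137 and Id3 at -0.0142 to 0.129. The called genes often lost their call over the alternative fits. Kcnq5 and Hmga2 kept it in 12 and lost it in 3. Acot7 and Prune2 kept it in 7 and lost it in 8, and Tead4 kept it in 6 and lost it in 9. Prg4, Dzip1, Mir763, Dpt and Mt3 kept it in 5 and lost it in 10, and Cetn4 and Tmeff1 kept it in 4 and lost it in 11. None of them changed sign. Low counts limit Mir763, Tead4, Tmeff1 and Cetn4.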

Other observations

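Several further genes set apart as lower, chosen after their values were seen, had wide differences. Ephx1, microsomal epoxide hydrolase, was at 4.98 and 8.68 CPM at 8 h, against 78.5, 92.4, 68.7 and 21.2 CPM in the Myod1-high libraries of 0.5, 1, 2 and 4 h. Clmn, which encodes calmin, was at 5.96 and 4.95 CPM at 8 h and at 26.6 to 76.4 CPM in the Myod1-high libraries. Cavin2, a coat protein of caveolae, was at 13.5 and 15.9 CPM at 8 h and at 54.8 to 143 CPM in the Myod1-high libraries. The most abundant was Zbtb20, a zinc finger repressor, at 532 and 515 CPM at 8 h and at 1085 to 1507 CPM in the Myod1-high libraries. Lgals1, galectin 1, was set apart as lower at 153 and 155 CPM at 8 h, against 365 to 628 CPM in the Myod1-high libraries, and stood at 1157 and 1012 CPM at 16 h.

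Ift27, Cc2d2a and Cep250 were set apart as lower and are named after their values were seen. Ift27, of intraflagellar transport, was at 1.76 and 2.26 CPM at 8 h and at 6.29 to 13.3 CPM in the Myod1-high libraries. Cc2d2a, of the ciliary transition zone, was at 1.18 and 2.02 CPM at 8 h and at 5.89 to 12.4 CPM. Cep250, of the centrosome linker, was at 0.471 and 0.764 CPM at 8 h and at 3.67 to 7.07 CPM. No list of ciliary or centrosomal genes was tested.

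Sept2 has 2 overlapping gene models, and their values went opposite ways. The first was at 0 CPM in both 8 h libraries and at 227, 237, 274 and 156 CPM in the Myod1-high libraries of 0.5, 1, 2 and 4 h. The second was at 387 and 384 CPM at 8 h and at 153, 109, 29.8 and 181 CPM. Reads of the 2 models cannot be told apart here, so neither value is a level of the gene. Myl12b also has 2 overlapping models, of which 1 was set apart as higher.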
